A study of Rattus norvegicus with 5 samples.

Results

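In single-nucleus RNA sequencing (snRNA-seq), each droplet is meant to hold 1 nucleus, and the number of genes detected in it depends on how much RNA the nucleus holds and on whether a second nucleus shares the droplet. An upper limit on genes is therefore a common filter, and the study of the rat ventral tegmental area (VTA) analysed here left out nuclei with 5000 or more genes. Those left-out nuclei are described here. They were defined as barcodes with 5000 or more genes detected and under 5% of their unique molecular identifiers (UMIs, the counted RNA molecules) from mitochondrial genes, and they numbered 1136, or 5.96% of the 19047 nuclei with 1000 or more genes. They were set against 3525 comparison nuclei with 3000 to 5000 genes under the same mitochondrial limit, where every range of genes leaves out its upper end. The definition used how many genes were detected and not which ones, so cell types, transmitter genes and Glp1r were free to differ.

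The tissue came from adult male Sprague-Dawley rats with no genetic alteration described, 1 library per rat and 5 rats, in which the VTA punches of both hemispheres were pooled. The labels give every library the treatment saline and the tissue brain, while the study calls these animals drug-naïve. There was no treated group, and every comparison was made within a rat between nuclei of different gene number. The study drew its limit after subtracting cell-free RNA. Here it was drawn on the counts as deposited, and 872 of the 1136 nuclei (76.8%) still had 5000 or more genes once 10% of each nucleus's UMIs were removed along the profile of near-empty droplets. A further 12 barcodes with 5000 or more genes had at least 5% mitochondrial UMIs and were not counted.

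The VTA is a midbrain region known for dopamine neurons that project to the striatum and cortex and that take part in reward and motivation. Local and projecting GABA neurons, glutamate neurons and neurons that carry more than one transmitter lie among them, and serotonin neurons of the raphe lie close by. Glial cells, above all the myelin-forming oligodendrocytes, outnumber neurons in such tissue but hold less RNA per nucleus. Glp1r encodes the receptor for glucagon-like peptide-1, a gut and brainstem peptide that reduces food and drug intake, and the study asked which VTA cells carry it.

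Rats 1 to 5 gave 284, 326, 3, 317 and 206 nuclei with 5000 or more genes. The comparison nuclei numbered 342, 1543, 26, 880 and 734. Rat 3 thus had fewer than 20 left-out nuclei, all 3 in a cluster that could not be named, and it entered no paired comparison. Its library was also the smallest, with 10193355 UMIs where the largest held 88576210. Rat 1 stood apart in another way. Its left-out nuclei held 29.2% of all UMIs in its library, against 8.05% to 16.2% in rats 2, 4 and 5, and its comparison nuclei were mostly glial, 38.3% oligodendrocyte-like and 25.1% neuronal. Where leaving out 1 rat turned one of the reported mean differences in shares between the full sets or moved it by more than 1.5 times, the value without that rat is given beside it or among the limits. No barcode of a left-out nucleus occurred in more than 1 library's set, and 3 barcodes did so among the comparison nuclei.

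The left-out nuclei had a median of 20959 UMIs and 5800 genes, and the comparison nuclei 9327 UMIs and 3795 genes, as the definition sets. The highest values were 206184 UMIs and 12426 genes. There were 488 nuclei with 6000 or more genes, 86 with 8000 or more and 14 with 10000 or more. The median mitochondrial share was 0.244% in the left-out nuclei and 0.376% in the comparison nuclei. Because depth differed in this way, shares of nuclei with a UMI of a gene are given both as deposited and after each nucleus was thinned at random to 5000 UMIs.

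Cell types were assigned from clusters and their marker genes. Of the 1136 left-out nuclei, 658 (57.9%) lay in neuron clusters with neuronal leading genes. Another 345 (30.4%) lay in neuron sub-clusters whose leading genes were glial. Glial and vascular clusters were few among them, with 62 astrocyte-like, 18 vascular-like, 13 oligodendrocyte-like, 8 microglia-like and 7 nuclei like oligodendrocyte precursor cells (OPCs), and 25 nuclei stayed unnamed. These names are those of the clusters, and most of the left-out nuclei in them held mixed markers. Markers of 2 types, each at 25% or more of the level typical of its type, were found in 83.9% of the astrocyte-like, 88.9% of the vascular-like, 87.5% of the microglia-like and 85.7% of the OPC-like left-out nuclei, and in 30.8% of the oligodendrocyte-like. In the comparison nuclei of the same clusters these shares were 72.7%, 86.2%, 83.3%, 80.2% and 22.8%, so mixed markers were not particular to the left-out nuclei. Both kinds of neuron sub-cluster together held 1003 of the left-out nuclei.

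Over all rats, the share of nuclei in neuron clusters was much larger in nuclei with more genes up to the limit and about level beyond it. It was 2.80% of nuclei with 1000 to 2000 genes, 24.2% at 2000 to 3000, 68.9% at 3000 to 4000 and 85.5% at 4000 to 5000. Unnamed clusters held 25.1%, 14.6%, 6.27% and 3.31% of the nuclei in these bins. The largest unnamed clusters, of 1388 and 1097 nuclei, had neuron markers as their highest score. Neurons may thus be missed among nuclei with few genes, and the part of this in the rise was not tested. Above the limit the share in neuron clusters was 88.7% at 5000 to 6000 genes, 87.8% at 6000 to 8000 and 87.2% at 8000 or more. Rat 1 differed from this course, with 37.3% at 4000 to 5000 genes, 70.2% at 5000 to 6000 and 89.5% at 6000 to 8000. In rats 2, 4 and 5 the share went from 88.1%, 93.8% and 93.8% at 4000 to 5000 genes to 86.5%, 95.02% and 96.0% at 5000 to 6000. Oligodendrocyte-like nuclei went the other way, from 58.9% of nuclei with 1000 to 2000 genes to 3.53% at 4000 to 5000 and 1.70% at 5000 to 6000, and none was found at 8000 or more.

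**Figure D1:**
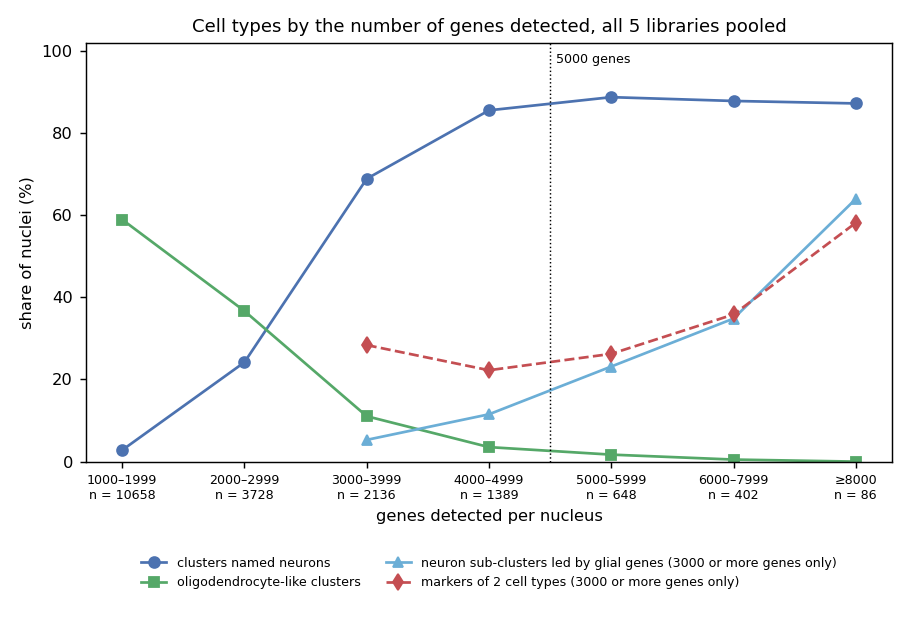
Share of nuclei of each kind (y axis, percent) by the number of genes detected (x axis, bins of genes), over all 5 rats, with lines for neuron clusters, oligodendrocyte-like clusters, neuron sub-clusters led by glial genes and nuclei with the markers of 2 cell types. Neuron clusters made up 85.5% of nuclei with 4000 to 5000 genes and 88.7% of those with 5000 to 6000, while the part of them in neuron sub-clusters led by glial genes came to 5.29% of nuclei at 3000 to 4000 genes and to 64.0% at 8000 or more.

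In rats 1, 2, 4 and 5, neuron clusters held 82.4%, 86.2%, 93.7% and 92.7% of the left-out nuclei. The same clusters held 26.0%, 79.0%, 82.0% and 85.4% of the comparison nuclei. The share was higher among the left-out nuclei in every one of the 4 rats, by 20.6 ± 23.9 percentage points (mean ± SD, n = 4), although the sets overlapped, since the left-out nuclei of rat 1 (82.4%) lay below the comparison nuclei of rat 5 (85.4%). A permutation test that flips the signs of the 4 differences, exact and two-sided, gave p = 0.125, the smallest value that 4 pairs allow, so no paired comparison of shares could pass 0.05. Without rat 1 the difference was 8.71 points. Against nuclei with 4000 to 5000 genes alone it was 10.5 points, with 1 of 4 rats higher, the differences in rats 2, 4 and 5 being −1.86, −0.0591 and −1.10 points. The share in neuron clusters just below the limit was therefore within 2 points of that above it in 3 of 4 rats.

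Oligodendrocyte-like nuclei, in which myelin genes such as Mbp and Mog are high, were scarcer among the left-out nuclei in all 4 rats. They made up 3.17%, 0.92%, 0.32% and 0% of them in rats 1, 2, 4 and 5, and 38.3%, 4.99%, 6.48% and 2.72% of the comparison nuclei (difference −12.0 ± 15.5 points, exact permutation p = 0.125). Without rat 1 the difference was −4.32 points. OPC-like nuclei were scarcer in the same way, with a mean of 0.56% against 3.53%. Astrocyte-like clusters averaged 5.56% ± 1.41 of the left-out nuclei and 6.40% ± 3.74 of the comparison nuclei (SD, n = 4), and were more frequent in 2 of 4 rats. Their difference of −0.84 points turned to 0.314 without rat 1. The left-out nuclei in them cannot be read as astrocytes alone: thinned to 5000 UMIs they carried medians of 37 oligodendrocyte, 11 neuron and 8 astrocyte marker UMIs, where the comparison nuclei carried 34.5, 4 and 18, and Scrublet marked 33.9% and 32.5% of them. Microglia-like and vascular-like nuclei came to means of 0.728% and 1.47%, with differences smaller than their spread between rats. The microglia-like differences were −1.05, −0.506, −1.50 and 0.426 points in rats 1, 2, 4 and 5, so rat 5 alone was above 0. Oligodendrocyte markers exceeded the markers of their own type in these clusters too, with medians of 114 against 4 UMIs in microglia-like, 60 against 18 in OPC-like and 29 against 6.5 in vascular-like left-out nuclei. The comparison nuclei of these clusters also did so, with 75 against 11, 44 against 18 and 38.5 against 10.5.

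**Figure D2:**
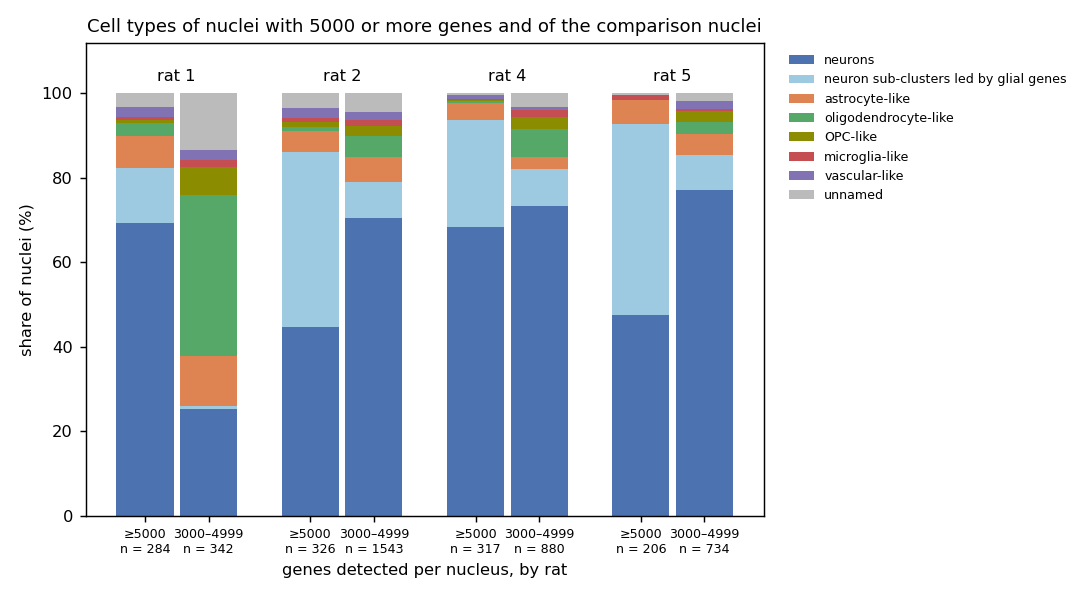
Stacked bars of the share of nuclei of each type (y axis, percent), with a bar for the nuclei of 5000 or more genes beside a bar for the comparison nuclei in each of 4 rats (x axis, n under each bar). The light blue part, neuron sub-clusters led by glial genes, is larger above the limit in all 4 rats, and rat 1 alone has a comparison bar in which neuron clusters are a minority at 26.0%.

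Seen from the cell types, the limit took unequal parts of them. It removed 20.6% of all nuclei in neuron clusters with 1000 or more genes, with 67.0% of them in rat 1 and 12.8% to 24.7% in rats 2, 4 and 5. It removed 5.65% of astrocyte-like, 4.79% of vascular-like, 1.59% of microglia-like, 0.835% of OPC-like and 0.164% of oligodendrocyte-like nuclei. The loss from neuron clusters in rat 1 was far above that in the other rats, and in rat 3 no nucleus of a named type was lost. These shares count named clusters only. An unnamed cluster of 299 nuclei, 296 of them from rat 1, scored highest on neuron markers but was mixed with oligodendrocyte markers. Only 6 of its nuclei were left out, so counting it as neurons would lower the share in rat 1.

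Among the shares of cell types in all nuclei, the neuron sub-clusters led by glial genes had the largest mean difference over the 4 rats. They held 13.0%, 41.4%, 25.2% and 45.1% of the left-out nuclei in rats 1, 2, 4 and 5, and 0.88%, 8.43%, 8.75% and 8.31% of the comparison nuclei. The difference was 24.6 ± 12.1 points and had the same direction in all 4 rats, with no overlap between the sets (exact permutation p = 0.125, the smallest possible). Their share was larger still in nuclei with more genes, at 23.2% with 5000 to 6000 genes, 34.8% with 6000 to 8000 and 64.0% with 8000 or more. Without these sub-clusters, neurons made up 57.5% ± 13.2 of the left-out nuclei and 61.5% ± 24.4 of the comparison nuclei, a difference of −3.99 points with 1 of 4 rats higher (exact permutation p = 0.875). This mean hid rats that moved in opposite directions, with differences of 44.2, −25.8, −4.84 and −29.5 points in rats 1, 2, 4 and 5. It was −20.1 points without rat 1, and 3.28 without rat 2 and 4.53 without rat 5.

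There were 3 such sub-clusters. The first, with 150 left-out nuclei, was led by named genes of myelinating oligodendrocytes, among them Mog, Opalin, Fa2h and St18. Thinned to 5000 UMIs, its left-out nuclei carried a median of 18 UMIs of the 7 neuron markers and 37.5 UMIs of the 9 oligodendrocyte markers, where left-out nuclei in the other neuron sub-clusters carried 32 and 4. The second, with 166 left-out nuclei, was led by genes known from microglia, among them Arhgap15, Inpp5d, Csf1r and Ctss. Its nuclei carried 31 neuron and 30 oligodendrocyte UMIs, but a median of 0 microglial UMIs, and 43.4% of them had any microglial marker UMI. The third, with 29 left-out nuclei, was led by Pdgfra, Vcan and Cspg4, genes of OPCs, and its nuclei carried 40 neuron, 8 OPC and 7 oligodendrocyte UMIs. Of the nuclei with 3000 or more genes in these 3 sub-clusters, 47.3%, 66.9% and 54.7% were left out, and of those in all neuron sub-clusters 27.4% (1003 of 3662). Over their nuclei on both sides of the limit, the 3 held 0.813, 3.04 and 2.47 Th and 1.80, 6.46 and 6.16 Ddc UMIs per 10000. The 3 sub-clusters later named dopaminergic-like held 5.36, 6.12 and 6.91 Th UMIs per 10000. Nuclei of the glial-led sub-clusters enter none of the neuron classes below, so the dopaminergic-like count leaves out any dopamine neurons among them.

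A droplet with 2 nuclei of different types would carry the markers of both, and 2 measures of this were taken. The first counted nuclei in which the markers of at least 2 of 6 major cell types each passed 2 limits. Their level per UMI as deposited had to reach 25% of that typical of the type, and after thinning they had to hold at least 3 UMIs. Such nuclei made up 26.4%, 49.7%, 18.6% and 32.0% of the left-out nuclei in rats 1, 2, 4 and 5, and 29.5%, 32.3%, 18.9% and 19.3% of the comparison nuclei. The difference, 6.68 ± 9.93 points, was smaller than the spread between rats and had no common direction, being positive in rats 2 and 5 only (exact permutation p = 0.5), and it was 3.11 points without rat 2. At 50% of the typical level it was −0.0139 points. Within neuron clusters alone, the share with 2 types' markers was 25.7% against 14.1% and higher in 4 of 4 rats (exact permutation p = 0.125), and it reached 58.1% of all nuclei with 8000 or more genes.

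One pair of types made up most of these nuclei. Neuron and oligodendrocyte markers occurred together in 14.1%, 41.7%, 10.1% and 25.2% of the left-out nuclei and in 13.7%, 19.5%, 6.48% and 9.13% of the comparison nuclei, higher in 4 of 4 rats by 10.6 ± 10.3 points, although in rat 1 by only 0.34 points. Without rat 2 the difference was 6.69 points. Neuron and astrocyte markers occurred together in 5.98% against 4.19%, again higher in every one of the 4 rats. Neuron and OPC markers came to 5.29% against 4.99%, and differed in no common direction. The second measure was the doublet score of Scrublet, which compares each nucleus with simulated pairs. It marked 3.87%, 32.5%, 8.52% and 14.6% of the left-out nuclei and 0.88%, 12.6%, 7.73% and 5.31% of the comparison nuclei, higher in 4 of 4 rats by 8.23 points (exact permutation p = 0.125) and by 4.35 points without rat 2. Of the left-out nuclei with 2 types' markers it marked 40.9%, and of the others 3.24%. Among the 658 neurons outside the glial-led sub-clusters, 49 (7.45%) had 2 types' markers and 11 (1.67%) were marked, where 10.0% and 0.838% of the 2386 comparison neurons were. Cell-free RNA also brings oligodendrocyte and neuron transcripts into every droplet, and its part in these shares was not tested.

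The nuclei on either side of the limit show what a threshold at 5000 genes separated. Of the 215 nuclei with 4800 to 5000 genes and the 187 within 200 genes above the limit, neuron clusters held 86.5% and 86.6%, and glial-led sub-clusters 10.2% and 21.4%. Th was detected in 62.3% and 58.8% of them, Gad1 in 42.8% and 40.1%, and Glp1r in 6 nuclei and 2 nuclei.

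The remaining results on neuron classes are about the 658 left-out and 2386 comparison neurons outside the glial-led sub-clusters. Classes were named from sub-clusters by their transmitter markers. The left-out neurons comprised 283 GABAergic-like, 146 dopaminergic-like, 64 glutamatergic-like and 33 serotonergic-like nuclei, and 132 whose sub-clusters could not be named.

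Dopaminergic-like neurons, marked by Th, Slc6a3, Slc18a2 and Ddc, were more frequent among the left-out neurons. They made up 10.2%, 24.0%, 26.3% and 34.7% of them in rats 1, 2, 4 and 5, and 1.16%, 20.4%, 17.8% and 23.5% of the comparison neurons. The 1.16% of rat 1 was 1 nucleus of 86. The dopaminergic-like share was higher in 4 of 4 rats by 8.05 ± 3.21 points, and by 7.74 points without rat 1. The difference over 4 rats was larger than its spread, although the ranges of the sets overlapped (exact permutation p = 0.125). Against nuclei with 4000 to 5000 genes the difference was 5.99 points with 3 of 4 rats higher.

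GABAergic-like neurons, marked by the GABA-synthesising enzymes Gad1 and Gad2 and the vesicular transporter Slc32a1, came to 49.2%, 45.9%, 35.0% and 43.9% of the left-out neurons and to 44.2%, 53.4%, 40.5% and 57.1% of the comparison neurons. The difference of −5.28 ± 7.63 points was within the spread and turned in rat 1 (exact permutation p = 0.25), and it was −8.73 points without rat 1 and −2.65 without rat 5. Glutamatergic-like neurons, marked by the vesicular transporter Slc17a6, averaged 8.59% against 9.94%, lower in 4 of 4 rats by 1.35 ± 0.937 points (exact permutation p = 0.125), but with a difference in rat 2 of −0.0799 points. The direction of the mean turned when each nucleus was typed by its own markers (0.889 ± 3.22 points, from 32.6% against 31.7%). That mean lay far inside its spread, with −3.74, 3.45, 2.59 and 1.26 points in rats 1, 2, 4 and 5. These shares depend strongly on how the class is drawn. The unnamed sub-cluster led by Ttc29 and Stk32a held 2.98 Slc17a6 UMIs per 10000, more than the 1.79 and 2.12 of the sub-clusters named glutamatergic-like. Serotonergic-like neurons, marked by Tph2 and the serotonin transporter Slc6a4, made up 2.54%, 3.42%, 5.99% and 10.2% of the left-out neurons against 1.16%, 3.40%, 2.79% and 2.12%, again higher in 4 of 4 rats. Their 33 left-out nuclei were 32.7% of the serotonergic-like sub-cluster's nuclei with 3000 or more genes. In rat 1 the 1.16% of comparison neurons was again 1 nucleus of 86. Rat 5 gave the widest gap while rat 2 showed almost none, and the mean difference of 3.17 points was 1.53 without rat 5.

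**Figure D3:**
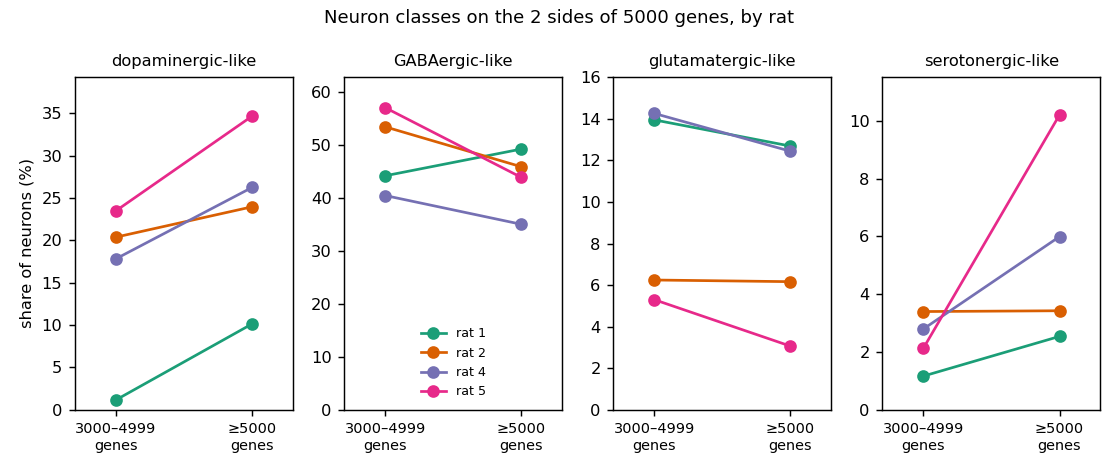
Share of each class among neurons (y axis, percent) in each of 4 rats, with lines joining nuclei of 3000 to 5000 genes to nuclei of 5000 or more genes of the same rat. The dopaminergic-like share is higher above the limit in all 4 rats, from 1.16% (1 of 86 neurons) to 10.2% in rat 1 and from 23.5% to 34.7% in rat 5. The GABAergic-like share is lower in 3 of 4.

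The dopaminergic-like neurons fell into 3 sub-clusters, and the limit took different parts of them. The sub-cluster led by Col24a1 and Slco4a1 held 18 of the 146 left-out dopaminergic-like nuclei (12.3%) and 187 of 471 in the comparison (39.7%). In rats 2, 4 and 5, its shares were 8.57%, 12.3% and 14.7% above the limit and 29.3%, 58.3% and 41.4% below it, with no overlap. The sub-cluster led by Raver2 and Plod2 went the other way, with 42.5% of the left-out and 24.0% of the comparison dopaminergic-like nuclei, and shares of 37.1%, 52.6% and 35.3% against 27.9%, 20% and 21.1%. The sub-cluster led by Tmem207 and Spag16 held 45.2% and 36.3%. These shares are a description, since gene number and cluster were read from the same counts.

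UMIs of genes of all the main transmitter systems occurred in the left-out nuclei. Th, the rate-limiting enzyme of dopamine synthesis, had a UMI in 67.3% of the 1136 nuclei, Ddc, the next enzyme, in 65.9%, the vesicular monoamine transporter Slc18a2 in 62.9% and the dopamine transporter Slc6a3 in 61.4%. Gad2 had a UMI in 62.0%, Gad1 in 49.4% and Slc32a1 in 40.8%. Slc17a6 had one in 47.2%, Slc17a8 in 11.5% and Slc17a7 in 3.26%, these being the 3 vesicular glutamate transporters. Tph2 was found in 16.4%, Slc6a4 in 8.45%, the glycine transporter Slc6a5 in 8.27%, the acetylcholine-synthesising Chat in 7.04% and the histamine-synthesising Hdc in 0.616%.

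Such shares can overstate expression, since cell-free RNA or a second nucleus can add UMIs to a droplet. The part of each was not tested. Oligodendrocyte-like nuclei, which should lack these genes, gave the background: among the 285 of them with 3000 to 5000 genes (median 9498 UMIs), Th had a UMI in 46.0%, Gad2 in 34.0%, Gad1 in 21.1%, and Slc17a6 and Slc32a1 in 17.2% each. The 13 oligodendrocyte-like left-out nuclei had a median of 22470 UMIs, and Th occurred in 69.2% of them, Slc6a3 in 69.2%, Slc18a2 in 61.5%, Slc32a1 in 53.8%, Slc17a6 in 38.5%, Gad1 in 30.8%, Tph2 and Slc6a5 in 23.1% each, and Chat and Slc6a4 in 7.69% each. The shares of left-out nuclei with Th, Slc6a3, Slc32a1, Tph2, Slc6a5 or Chat are at or below this background, and those with Slc18a2 or Slc6a4 less than 2 points above it, so these shares alone do not show expression. Those with Ddc (38.5% in the background), Gad1 or Gad2 lie further above it. The background rests on few nuclei, 9 of the 13 from rat 1 and 4 with 2 types' markers, and its limits are wide (38.6% to 90.9% for Th and 9.09% to 61.4% for Gad1, exact 95% binomial, counting error only). By level, all left-out nuclei held 4.07 Ddc, 1.20 Slc18a2 and 0.174 Slc6a4 UMIs per 10000, and the 13 held 0.719, 0.548 and 0.0343.

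Thinning to 5000 UMIs narrowed the gap in detection, to unequal degrees. Th then had a UMI in 41.5% of left-out and 40.8% of comparison nuclei, Gad1 in 29.8% and 32.5%, and Gad2 in 39.1% and 41.6%. Ddc kept a wider gap, at 47.7% and 39.3% (65.9% and 48.1% as deposited), as did Slc18a2, at 33.7% and 27.7%.

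In the paired comparison over rats 1, 2, 4 and 5, thinned Ddc detection was higher in 4 of 4 rats by 11.1 ± 2.77 points and Slc18a2 detection by 8.63 ± 3.98 points (exact permutation p = 0.125 each). Thinned Th detection was 34.5%, 54.0%, 34.4% and 42.2% in left-out nuclei and 31.6%, 53.5%, 26.8% and 35.1% in comparison nuclei, higher in 4 of 4 rats by 4.51 ± 3.41 points (exact permutation p = 0.125). Slc17a8, the glutamate transporter of serotonergic and some other neurons, was higher in 4 of 4 rats too, with 3.87%, 5.83%, 5.36% and 9.22% against 1.46%, 4.21%, 3.75% and 2.59%, a difference of 3.07 points that was 1.88 without rat 5. Over all nuclei, Gad1 and Gad2 were higher in rat 1 only, and their mean differences of 1.06 and 0.0754 points were far inside the spread and turned to −3.08 and −2.91 without rat 1.

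Cell type shares also differed over all nuclei, so the same thinned measures are given in neurons alone. There Slc18a2 was higher in 4 of 4 rats by 10.7 ± 9.12 points, and by 6.16 without rat 5. Ddc was higher in 3 of 4 (7.57 ± 8.43 points, and 3.71 without rat 5). Th was higher in 3 of 4 (1.92 ± 6.44 points, with −7.09 in rat 2), but its mean was 4.92 without rat 2 and −0.115 without rat 5. Slc17a8 was higher in 2 of 4 (3.35 ± 6.02 points, and 0.595 without rat 5). Slc17a6 was lower in 4 of 4 rats by 5.04 ± 4.55 points (exact permutation p = 0.125), and by 3.35 without rat 5. Gad1 and Gad2 were lower in 3 of 4 rats each, with means of −2.03 and −3.88 points. The Gad1 mean was −5.01 without rat 1 and 0.883 without rat 5, and the Gad2 mean −6.99 without rat 1 and −2.21 without rat 5. Over the 71 paired comparisons of shares made here, 26 reached the smallest p of 0.125, and the smallest Benjamini-Hochberg adjusted value was 0.341.

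Left-out nuclei carried genes of several transmitters more often than the comparison nuclei as deposited, and not after thinning. GABA, glutamate and dopamine genes were taken as 3 kinds. UMIs of all 3 kinds occurred in 31.0% of left-out and 13.0% of comparison nuclei, of 2 kinds in 46.2% and 46.3%, of 1 kind in 21.5% and 36.2%, and of none in 1.32% and 4.54%. After thinning, all 3 kinds occurred in 5.19% and 5.11% of nuclei, 2 kinds in 31.4% and 33.3%, and 1 kind in 52.8% and 50.3%.

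Gene by gene, counts were summed over each rat's left-out nuclei and over its comparison nuclei and tested with the rat as a block with the quasi-likelihood test of edgeR, and p-values were adjusted by Benjamini-Hochberg over all genes in the fit. In sums over nuclei of all types, 0 of 14516 genes passed an adjusted p of 0.05 (714 had an unadjusted p under 0.05). DESeq2 called 3 genes, and edgeR called 104 genes without rat 1, 49 higher and 55 lower. In sums over the neurons alone, 140 of 13561 genes passed (1.03%), 79 higher (0.583%) and 61 lower (0.45%) in left-out neurons, 137 of them the same way in all 4 rats. The median log2 fold change over all genes was −0.01, where TMM scaling sets the centre. The count was 409 without rat 1, 45 without rat 2 and 7 without rat 4 or without rat 5, and 20 against nuclei with 4000 to 5000 genes. It was 692 when each nucleus was typed by its own markers, 546 of them higher, and 0 without the rat as a block.

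Among the 4 genes of dopamine handling, 2 rose in the left-out neurons. Slc6a3 stood at 163, 347, 283 and 378 CPM (counts scaled to the same library total) in left-out neurons of rats 1, 2, 4 and 5, and at 61.1, 289, 132 and 213 CPM in comparison neurons. Each rat's left-out neurons were higher than its own comparison neurons, although the ranges overlapped, and the log2 fold change was 0.82 ± 0.13 (SE, edgeR adjusted p = 0.0191). Slc18a2 rose by 0.53 ± 0.10 (adjusted p = 0.0304). Ddc (0.50, adjusted p = 0.0848) and Th (0.28, adjusted p = 0.138) did not pass. The 4 dopamine genes had a median log2 fold change of 0.51, with 2 called higher. Neither Slc6a3 nor Slc18a2 passed without rat 4, without rat 5, or against nuclei with 4000 to 5000 genes, and the dopaminergic-like share of neurons was higher in the same rats. The part of that share in these changes was not tested.

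The other transmitter genes did not pass the test in neurons. The 4 GABA genes had a median log2 fold change of −0.17, all 4 below 0 and none called. Of the glutamate genes, Slc17a8 had a log2 fold change of 0.81 (adjusted p = 0.199). Tph2 was at 1.18 (adjusted p = 0.304), and no acetylcholine or glycine gene passed.

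A few further called genes came from lists of fast-firing channel and axon genes, most of whose members were not called. The lists were not tested as sets. Scn4b, the β4 subunit of voltage-gated sodium channels, stood at 6.57, 16.9, 5.08 and 6.11 CPM in left-out neurons of rats 1, 2, 4 and 5 and at 3.11, 4.12, 2.16 and 1.29 CPM in comparison neurons, with no overlap between the groups. The comparison sum of rat 1 held 920314 UMIs, so its 3.11 CPM rests on few UMIs and lies near the floor. The log2 fold change of Scn4b, 1.76 ± 0.27, was the highest among the genes named in neurons (edgeR adjusted p = 0.0165). Kcna1, a potassium channel of axons, rose by 0.80 ± 0.14 (adjusted p = 0.0274). Of 9 fast-firing channel genes, 2 were called higher, and their median was 0.17.

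The neurofilament heavy chain Nefh stood at 66.2, 94.9, 65.6 and 29.5 CPM in left-out neurons and at 46.6, 51.4, 37.0 and 26.3 CPM in comparison neurons. It rose by 0.69 ± 0.11 (edgeR adjusted p = 0.0191), and the medium chain Nefm by 0.52 ± 0.07 (adjusted p = 0.0087). These were the 2 called of 8 neurofilament and axon cytoskeleton genes, whose median was 0.13. Of the 5 perineuronal net genes, which build the matrix around fast-firing neurons, none was called, though all 5 were above 0 with a median of 0.38 and Acan at 1.01 (adjusted p = 0.105). Nefh, Nefm, Scn4b and Kcna1 also passed against nuclei with 4000 to 5000 genes, and were lost without rat 2 and without rat 4. Nefm was at −0.07 when each nucleus was typed by its own markers.

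A pair of synaptotagmins rose as well. Syt2, a fast calcium sensor of transmitter release, stood at 46.0, 71.3, 58.9 and 34.1 CPM against 24.9, 34.6, 26.2 and 22.1 CPM, a log2 fold change of 0.99 ± 0.10 (edgeR adjusted p = 0.0036). Of the named genes, Syt2, Mboat1 and Adgrv1 passed whichever of the 4 rats was left out. Syt1, the main calcium sensor of fast release and a marker by which neurons were named, rose by 0.57 ± 0.09 (adjusted p = 0.0191). Long synaptic genes as a group moved little: none of 12 was called, all 12 were above 0, and their median was 0.11. Over all genes 47.4% were above 0.

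**Figure D4:**
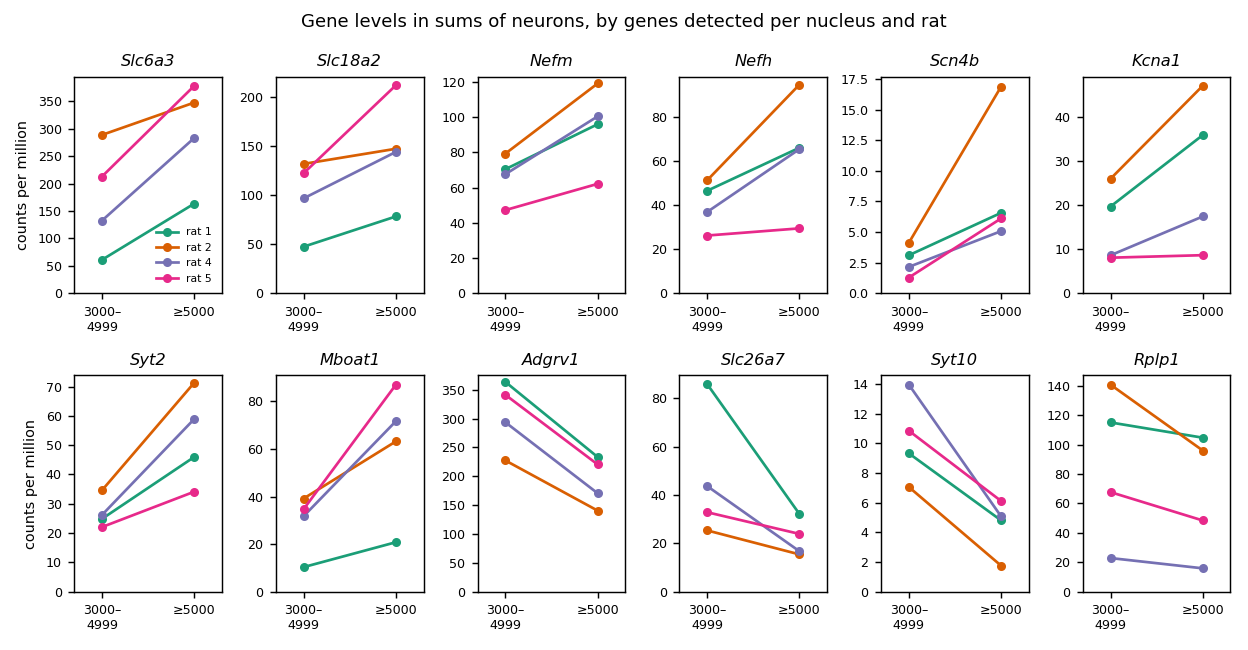
Level in neurons (y axis, CPM after TMM scaling, from 0) of 12 called genes in each of 4 rats (colours), with lines joining the comparison neurons to the neurons with 5000 or more genes (x axis). The first 8 panels, from Slc6a3 to Mboat1, are higher above the limit in all 4 rats, and Adgrv1, Slc26a7, Syt10 and Rplp1 are lower in all 4.

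Among the 12 called genes with the highest fold changes were, beside Scn4b and Syt2, Anxa1 (1.63), Neb (1.38), Mboat1 (1.05), Aff1 (0.99), Spp1 (0.97), Pde8a (0.96), Dysf (0.96), Adamts6 (0.93) and Dnah11 (0.86), all on the log2 scale. Anxa1, which encodes annexin A1 and marks a ventral set of substantia nigra dopamine neurons, had 3.37, 9.84, 8.61 and 4.58 CPM against 0, 3.14, 2.01 and 2.94 CPM. Mboat1, an acyltransferase that remodels membrane phospholipids, had 20.8, 63.2, 71.7 and 87.1 CPM against 10.4, 39.2, 31.8 and 34.7 CPM (edgeR adjusted p = 0.0036). Spp1 encodes osteopontin, Dysf the membrane-repair protein dysferlin and Pde8a a cyclic AMP phosphodiesterase. Every one of these genes was higher in each of the 4 rats, which the rule for naming them required.

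The 12 called genes with the deepest falls were Syt10 (−1.29), Slc26a7 (−1.07), Pkib (−0.97), B4gat1 (−0.91), Ccnd2 (−0.85), Phex (−0.83), Nfe2l3 (−0.75), Zfp667 (−0.72), Tac1 (−0.71), Adgrv1 (−0.69), Pnck (−0.68) and Rnf144b (−0.65). Adgrv1, a very large adhesion receptor, had the smallest p of all genes: it stood at 233, 141, 171 and 221 CPM in left-out neurons and at 364, 227, 294 and 341 CPM in comparison neurons (edgeR adjusted p = 0.0013). Tac1, the precursor of substance P, stood at 40.7, 21.8, 16.3 and 8.66 CPM against 53.9, 38.2, 23.0 and 24.8 CPM. Syt10, a synaptotagmin linked to growth-factor secretion, stood at 4.81, 1.76, 5.08 and 6.11 CPM against 9.32, 7.06, 13.96 and 10.8 CPM, with no overlap. Pkib is an inhibitor of protein kinase A, and Ccnd2 a cyclin. Some named genes lead sub-clusters, and over all neuron sub-clusters 27.4% of nuclei with 3000 or more genes were left out. That share was 5.95% in the Adgrv1-led, 19.8% in the Slc26a7-led and 20.1% in the Pdzrn3-led, where Tac1 is a leading gene. Mboat1 and Neb, which rose, are leading genes of sub-clusters with 35.4% and 24.9%. The part of sub-cluster shares in these changes was not tested.

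Genes of the ribosome included 2 that fell. Of 6 ribosomal protein genes tested, Rps3 (−0.40) and Rplp1 (−0.43) fell, each with edgeR adjusted p = 0.0430, and the median of the 6 was −0.29. Neither passed with DESeq2 (adjusted p = 0.125 for Rps3 and 0.0793 for Rplp1), against nuclei with 4000 to 5000 genes, or without rat 2, 4 or 5. In nuclei such short, abundant transcripts can come in part from cytoplasm and cell-free RNA, and the part of these in the falls was not tested. The summed level of the ribosomal protein genes was 3.997, 4.25, 1.07 and 2.50 UMIs per 10000 in left-out neurons of rats 1, 2, 4 and 5 and 4.73, 5.35, 1.37 and 3.04 in comparison neurons, lower in every rat. None of 11 oxidative phosphorylation genes passed, with 10 below 0 and a median of −0.11. None of 8 RNA polymerase II genes and none of 5 immediate early genes passed, with medians of −0.01 and 0.06.

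Glial markers in the neuron sums bear on these lists. The 9 oligodendrocyte markers summed to 16.0, 30.7, 5.99 and 9.64 UMIs per 10000 in left-out neurons and to 17.6, 28.0, 8.29 and 11.9 in comparison neurons, higher in rat 2 only. Astrocyte markers averaged 1.58 and 1.55 per 10000, and microglial markers 0.209 and 0.195. None of these marker genes passed the test in neurons. Without nuclei that carried 2 types' markers, 138 of the 140 genes were among the 304 called, and without nuclei marked by Scrublet all 140 were among 203.

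Within dopaminergic-like neurons, where rats 2, 4 and 5 had 20 or more nuclei on each side, 223 of 10258 genes passed (2.17%), 129 higher (1.26%) and 94 lower (0.916%). The genes named here were chosen after their values were seen. Arpp21, a cyclic AMP-regulated phosphoprotein, stood at 24.9, 33.9 and 29.6 CPM in rats 2, 4 and 5 against 9.20, 6.91 and 0.747 CPM (log2 fold change 2.27 ± 0.36, edgeR adjusted p = 0.0002). Lix1 stood at 68.7, 67.0 and 47.3 CPM against 31.5, 8.45 and 19.4 CPM (1.64 ± 0.24). Meis2, a homeobox factor, and Gad2 rose by 1.995 and 0.95 on the log2 scale. In each of these genes the 3 rats moved the same way. Arpp21 is also a leading gene of the GABAergic-like sub-cluster led by Npas1, and Meis2 of that led by Nox4. Of 3 GABA genes tested in the dopaminergic-like sums, 1 was called higher and 2 were above 0, with a median of 0.49. The part of GABA neuron transcripts in these rises was not tested. The 0.747 CPM of rat 5 came from a sum of 1332400 UMIs and lies near the floor.

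Among the genes that fell in dopaminergic-like neurons, Pax8 stood at 1.46, 3.85 and 4.43 CPM against 10.1, 30.7 and 21.7 CPM, a log2 fold change of −2.72 ± 0.42 (edgeR adjusted p = 0.0002). Col14a1, a fibril-associated collagen, stood at 1.46, 7.70 and 8.87 CPM against 22.3, 46.1 and 31.4 CPM (−2.48 ± 0.32). The left-out sums of rats 2, 4 and 5 held 690305, 1320406 and 687396 UMIs. The left-out values of Pax8 and the 1.46 CPM of Col14a1 thus rest on few UMIs and lie near the floor. Col14a1 and Lpl (−1.87) are leading genes of the Col24a1 sub-cluster, which was scarcer among the left-out dopaminergic-like nuclei. The peptide gene Sst also fell, by 2.01 on the log2 scale. Slc6a3, a defining gene of the class, rose by 0.46, and the part of the differing sub-cluster shares (12.3% against 39.7% for the Col24a1 sub-cluster) in these gene changes was not tested. The count was 24 against nuclei with 4000 to 5000 genes, 339 without rat 2, and 83 without rat 4. In GABAergic-like neurons, 0 of 11709 genes passed by edgeR (1075 had an unadjusted p under 0.05), and DESeq2 called 13. Only 1 rat had 20 glutamatergic-like nuclei on each side, so no test was made there.

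Glp1r was found in 34 of the 1136 left-out nuclei (2.99%), with 68 UMIs, and in 55 of 3525 comparison nuclei (1.56%), with 94 UMIs. Rats 1 to 5 contributed 13, 7, 1, 2 and 11 of the 34. The limit therefore left out 34 of the 115 Glp1r nuclei with 1000 or more genes (29.6%) and 68 of their 192 UMIs (35.4%), where it left out 5.96% of all such nuclei. The left-out nuclei held 26.6% of all UMIs in nuclei with 1000 or more genes. A UMI of any gene is more often found in a deeper nucleus, so these shares are no sign of a higher level.

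The share of Glp1r nuclei as deposited was higher above the limit, and the level was not. Left-out nuclei held Glp1r at 2.32 CPM (95% exact Poisson interval 1.80 to 2.94) and comparison nuclei 2.71 (2.19 to 3.32), so the intervals overlapped. After thinning, Glp1r was detected in 0.704%, 0.613%, 0.315% and 1.46% of left-out nuclei of rats 1, 2, 4 and 5, and in 1.17%, 1.17%, 0.795% and 1.23% of comparison nuclei. The thinned difference was −0.317 ± 0.367 points, lower in 3 of 4 rats and higher in rat 5 (exact permutation p = 0.25), and the mean difference as deposited was 1.55 points, so its direction turned with thinning. As deposited it was −0.619 points in rat 4, and the mean was 0.791 without rat 5. In the summed counts, Glp1r had a log2 fold change of −0.28 ± 0.49 over all nuclei (edgeR adjusted p = 0.932), −0.09 ± 0.46 in neurons (adjusted p = 0.975) and 0.06 ± 0.42 in GABAergic-like neurons (adjusted p = 0.993). No difference in Glp1r level was detectable at this depth.

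The level of Glp1r in the left-out nuclei was close to that in cell-free RNA itself, which makes up only a part of a nucleus's UMIs. Near-empty droplets held 16 Glp1r UMIs among 8754893, or 1.83 CPM (1.04 to 2.97, counting error only), and the interval overlaps that of the left-out nuclei. Oligodendrocyte-like nuclei held 0.178 CPM (0.058 to 0.415), clearly below both. All 34 left-out Glp1r nuclei kept a Glp1r UMI after the removal of cell-free RNA. That removal followed the profile of near-empty droplets, in which Glp1r is rare at 1.83 CPM. It could take almost no Glp1r UMI from any nucleus, so it cannot show whether these UMIs were cell-free RNA. GABAergic-like neurons held 3.98 CPM above the limit (2.65 to 5.76) and 5.01 below it (3.81 to 6.48).

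By type, Glp1r was found in 18 of the 658 left-out neurons (2.74%), in 11 of 345 nuclei of the glial-led sub-clusters (3.19%), in 2 of 62 astrocyte-like, 2 of 18 vascular-like and 1 of 25 unnamed nuclei. Each of these last 5 carried 2 types' markers and had a Gad1 UMI. It was found in 0 of 13 oligodendrocyte-like, 0 of 8 microglia-like and 0 of 7 OPC-like left-out nuclei, sets too small to set a low limit. Among 285 oligodendrocyte-like comparison nuclei it was found in 3 (1.05%), which serves as a background share at a median of 9498 UMIs.

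Among the left-out neurons, 13 of the 18 Glp1r nuclei were GABAergic-like, or 4.59% of that class, where 34 of 1204 comparison GABAergic-like neurons (2.82%) had Glp1r. It was found in 3 of 146 dopaminergic-like left-out neurons (2.05%), 1 in each of the 3 sub-clusters, and in 1 of 471 in the comparison (0.212%). It was found in 0 of 64 glutamatergic-like and 0 of 33 serotonergic-like left-out neurons. On both sides of the limit, GABAergic-like neurons had the largest share with Glp1r among the classes.

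A small GABAergic-like sub-cluster stood out for Glp1r. It was led by Rfx4 and Glis3, both transcription factor genes, and held 5 left-out nuclei, of which 4 had Glp1r, and 14 comparison nuclei, of which 7 had it. With 0.894 Glp1r UMIs per 10000 it had the highest level of the 25 neuron sub-clusters. The Tnc-led sub-cluster followed at 0.0683 and the Npas1-led at 0.0629 per 10000, with 3 of 59 and 6 of 90 left-out nuclei. Of the nuclei in the Rfx4-led sub-cluster, 13 came from rat 2, 5 from rat 5 and 1 from rat 1. It also held 3.90 UMIs per 10000 of the vesicular glutamate transporter gene Slc17a8, where the serotonergic-like sub-cluster held 4.01. The Rfx4-led sub-cluster was singled out after its values were seen, and with 19 nuclei it is described and not tested.

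Gad1 and Th were then read in the Glp1r nuclei. Of the 34 left-out Glp1r nuclei, 33 had a Gad1 UMI (97.1%, 95% exact binomial interval 84.7% to 99.9%) and 22 a Th UMI (64.7%, 46.5% to 80.3%). Both genes occurred in 21, Gad1 alone in 12, Th alone in 1 and neither in 0. Of the 1102 other left-out nuclei, 47.9% had Gad1 and 67.3% had Th, at a median of 20879 UMIs where the Glp1r nuclei had 24712. Gad1 was thus far more frequent in Glp1r nuclei than in the rest, and Th was not.

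**Figure D5:**
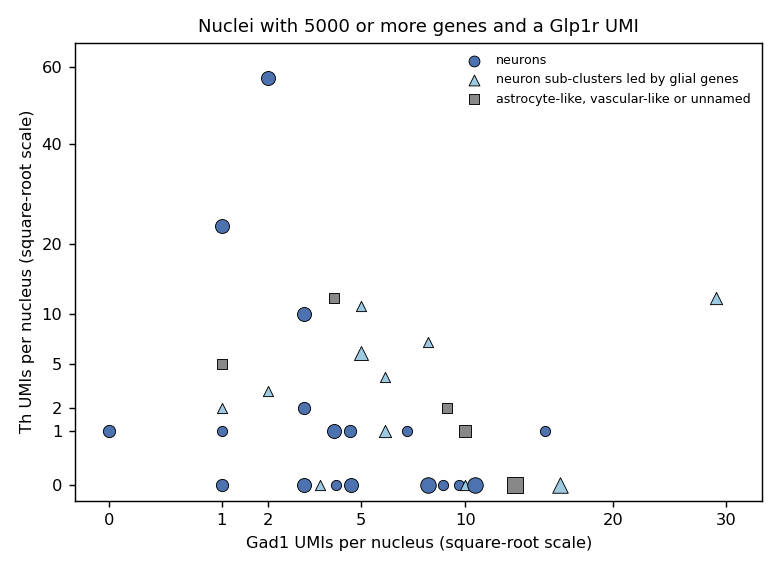
Gad1 UMIs (x axis) and Th UMIs (y axis) in each of the 34 left-out nuclei with Glp1r, on square-root axes, with points at the same values set side by side and a marker that grows with the Glp1r UMIs. All but 1 nucleus lie to the right of 0 on the Gad1 axis, while 12 lie on 0 of the Th axis.

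The share of Glp1r nuclei with any Th UMI was near the background. Th had a UMI in 69.2% of the 13 oligodendrocyte-like left-out nuclei, against 64.7% of the Glp1r nuclei, so this share alone does not show expression. Counts in single nuclei are given beside it. The dopaminergic-like class was named from genes that include Th and Slc6a3, so high counts of these in its nuclei follow in part from the naming. The 3 dopaminergic-like Glp1r nuclei held 57, 23 and 10 Th UMIs among 81313, 29203 and 13681 UMIs, and 52, 14 and 5 Slc6a3 UMIs, where the oligodendrocyte-like left-out nuclei held 1.302 Th UMIs per 10000. The same 3 nuclei also held 2, 1 and 3 Gad1 UMIs and 1, 6 and 6 Gad2 UMIs, so they did not hold dopamine genes alone. After removal of cell-free RNA, 14 of the 34 (41.2%) kept Th and 32 (94.1%) kept Gad1. With 2 UMIs asked for, 14 (41.2%) had Th and 28 (82.4%) had Gad1. Among the 18 Glp1r nuclei in neurons proper, 17 had Gad1 and 10 had Th. Among the 55 comparison Glp1r nuclei, 72.7% had Gad1 and 45.5% had Th, and in oligodendrocyte-like comparison nuclei 21.1% and 46.0%. Of the 34 left-out Glp1r nuclei, 10 carried 2 types' markers and 24 did not, and among those 24 Gad1 was found in 23 and Th in 14. That measure takes all neurons as 1 type, so a droplet with a GABA and a dopamine neuron would not be counted by it. The level of Gad1 was 1.75 UMIs per 10000 in left-out Glp1r nuclei and 1.06 in the other left-out nuclei, and that of Th 1.36 and 1.81.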

How the data were processed

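Single nuclei from 5 rat VTA libraries (10x Genomics 3′ v3.1) were analysed from the UMI counts per gene and barcode that the authors deposited, which hold all 7865478 barcodes and 32883 genes. The counts were not normalised by the authors. The submitters' processing notes name Cell Ranger 8.0.1 while the headers of all 5 matrix files name Cell Ranger 4, and which of them made the counts is not known here. The genome build is not given in the sources used here. Libraries held 10193355 to 88576210 UMIs. The study's later steps (cell-free RNA correction, the gene limit, doublet removal) are not in these files and were not repeated as such.

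Nuclei with 1000 or more genes and under 5% mitochondrial UMIs were clustered with scanpy 1.11.5 (2000 variable genes, 30 principal components, Leiden resolution 1), and neuron clusters were clustered again. Names rest on marker lists. The scoring rule, the naming of sub-clusters led by glial genes and the measure of 2 types' markers were set after the data were seen. The members, lists and markers were chosen with earlier results of these data known. Ependymal markers named no cluster. Scrublet's automatic threshold marked 17 of 19047 nuclei and had not worked, so the highest scores were marked at 0.8% per 1000 nuclei, and no nucleus was removed in the main analysis.

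Counts were summed per rat and group and tested in R 4.3.3 with edgeR 4.0.16 (TMM, low-count filter, quasi-likelihood test, rat as a block, adjusted p under 0.05). The pairing comes from the animal. Deviations from group means of a rat's 2 sums correlated at 0.296 to 0.815. The named genes were the 12 highest and 12 lowest called fold changes that moved the same way in every rat, in all nuclei and in neurons, beside listed genes. Glp1r is reported throughout. A gene identifier with no symbol was left out (6 in neurons). Some genes that the rule or the lists take in are not reported here by name. Levels are not corrected for gene length, so values of different genes are not compared as levels of expression. The strand used in counting is not given in the sources used here, and overlapping genes could not be told apart. On simulated counts for the neuron sums (13561 genes), 83% of 100 genes changed 2-fold and 99% of 100 changed 4-fold were recovered, with 12 false calls.

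Shares were compared within rats by a permutation test, exact and two-sided, that flips the sign of each rat's difference. Nuclei are not replicates. Each rat gave 1 library, so p-values measure the spread between 4 rats. Intervals are exact at 95% and cover counting error only, since free RNA and doublets lie outside them. Thinning used 5000 UMIs and scipy 1.17.1. Alternatives were DESeq2 1.42.0 and its size factors, no filter, no block, thinned sums, nuclei of 4000 to 5000 genes, typing by own markers, removal of marked nuclei or cell-free RNA, and leaving out each rat. Those added after seeing the data left out nuclei with 2 types' markers, included or excluded the glial-led sub-clusters, or used 50% of the typical level.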

Additional observations from a re-analysis of the deposited data

Results flagged for a closer look

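With 4 rats per group, 54 sets of values were checked for a rat far from the others, and 9 were found, where chance alone gives about 5% of sets. Of these 9, 4 came from the comparison nuclei of rat 1 and 2 from its differences. In those comparison nuclei, neuron clusters held 26.0% of nuclei where the other rats had 79.0%, 82.0% and 85.4%, oligodendrocyte-like nuclei held 38.3%, OPC-like nuclei 6.43% and sub-clusters led by glial genes 0.877%. The differences between left-out and comparison nuclei in rat 1 were accordingly far from those of the others, at 56.4 points for neuron clusters and −35.1 points for oligodendrocyte-like nuclei. The vascular-like difference was −1.77 points in rat 5, which had no vascular-like nucleus with 5000 or more genes. Thinned Glp1r detection was low in the comparison nuclei of rat 4, at 0.795%, and its difference was 0.230 points in rat 5, the only rat above 0.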

How the results depend on the processing

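Of the alternative values for the summary results, 89 were counted as kept, 34 as moved and 4 as turned. For differences in shares this count looked at direction only, since no p could pass 0.05, so a kept value may differ in size. The neuron difference against 4000 to 5000 genes, 10.5 points with 1 of 4 rats higher, was counted as kept beside the main value of 20.6. The share of neurons turned to −3.99 points without sub-clusters led by glial genes, glutamatergic-like neurons to 0.889 with own-marker typing, the share with 2 types' markers to −0.0139 at 50% of the typical level, and Glp1r detection to 1.55 without thinning. Genes called in neurons (140) numbered 89 with DESeq2, 634 without the filter, 20 against 4000 to 5000 genes, 304 without nuclei of 2 types' markers, 692 with own-marker typing (546 higher) and 1332 with the glial-led sub-clusters. In dopaminergic-like neurons (223) they numbered 45 with DESeq2 and 24 against 4000 to 5000 genes. In GABAergic-like neurons (0) they numbered 13, 227 without the filter, 4 without marked nuclei and 42 without nuclei of 2 types' markers, and over all nuclei 3 with DESeq2. Without the replicate block, which pairs each rat's sums, 0 genes were called in every set. Nuclei above the limit numbered 872 after removal of cell-free RNA. Glp1r nuclei had Gad1 in 82.4% at 2 UMIs and 62.5% when thinned (8 nuclei), and Th in 41.2%, 37.5% and, without cell-free RNA, 41.2%. Leaving out 1 rat gave 8.71 to 25.1 points for neurons, 7.005 to 9.54 for dopaminergic-like, −8.73 to −2.65 for GABAergic-like, −1.77 to −1.05 for glutamatergic-like, 3.11 to 9.95 for 2 types' markers and −0.499 to −0.238 for Glp1r detection. Added after the data were seen, it gave −1.50 to 0.314 for astrocyte-like, −0.46 to 0.278 for vascular-like, −0.78 to 1.297 for neuron and OPC markers, and −3.08 to 2.598 and −2.91 to 1.21 for thinned Gad1 and Gad2 detection, and in neurons −0.115 to 4.92 for Th and −5.01 to 0.883 for Gad1. It gave 0 to 104 genes over all nuclei, 7 to 409 in neurons, 83 to 339 in dopaminergic-like and 0 to 33 in GABAergic-like neurons, 810 to 1133 nuclei, and 95.7% to 100% with Gad1 and 52.4% to 78.3% with Th. Among single genes, Nefm turned to −0.069 with own-marker typing, and Glp1r lay between −0.79 (without rat 5) and 0.15 (without rat 4) over all nuclei, was at −0.99 in neurons without rat 5 and at 0.20 and 0.38 without rats 2 and 4, and turned to −0.12 in GABAergic-like neurons without the block. All 24 named neuron genes kept their direction under every alternative, and 20 were called with thinned sums, 7 against 4000 to 5000 genes, 8 without rat 2 and 4 without rat 4 or rat 5. The causes of these changes were not tested. With 4 rats no share could pass 0.05, and 68 Glp1r UMIs limit its precision.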
